A study of Silurus asotus with 15 samples.

Results

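The insulin-like growth factors and their binding proteins were followed through 15 tissues of Silurus asotus, the Amur catfish, which lives near the bottom of fresh waters. The members were chosen by protein name: 13 of 25089 genes were named as an insulin-like growth factor (IGF, 3 ligands) or as an IGF-binding protein (IGFBP, 10 loci) numbered from 1 to 6. Receptors and messenger RNA-binding proteins were left out. Of the binding protein loci, 3 are spelled in the annotation with a space in place of the hyphen and were kept. The binding proteins carried the numbers 1, 2, 3, 5 and 6, each given to 2 loci.

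Insulin-like growth factors are secreted peptides related to insulin that drive growth by way of a receptor tyrosine kinase. In vertebrates, growth hormone from the pituitary acts on the liver, whose IGF-I enters the blood, while IGF-II is made in many tissues. Most IGF in blood and between cells is held by binding proteins, which lengthen its life and can block or release it at the receptor. Teleosts carry extra copies of many of these genes from a genome duplication in their ancestors.

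The series holds poly(A) RNA from adult fish taken from a benthic environment, with 1 paired-end library for each tissue: liver, spleen, heart, testis, ovary, kidney, head kidney, pituitary, pancreas, skin, muscle, gill, brain, and the mandibular and maxillary barbels. No treatment, strain or genotype is given, nor the number of fish or which libraries share one. Because each tissue has 1 library, spread between fish is unknown, no test was run, and neighbours in an order of levels cannot be called different. Values are FPKM, fragments per kilobase of gene model scaled to the mapped fragments, so levels of different genes can be set side by side per length. In bulk tissue, fewer cells of a type and less RNA per cell cannot be told apart.

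Markers of nerve went against one label and markers of gill against another. The library labelled gill held 3012.2 summed FPKM of 9 nerve marker loci and 0.411 of 7 gill ionocyte loci. For the library labelled brain these sums were 2.60 and 666.0 FPKM. Both are therefore named by label only. By summed FPKM, liver, pituitary, pancreas, ovary, testis, muscle and heart were each the highest library for their own markers. Liver was highest for 13 of its 15 loci and pancreas for 7 of its 11, the other 4 being listed at 0 there. The rest of these libraries were highest for all of their marker loci. The blood-forming markers summed highest in head kidney, the epidermis markers in maxillary barbel and the kidney tubule markers in liver, through inositol oxygenase. Locus by locus the blood-forming list differed from its sum. Of its 16 loci, 8 were highest in the library labelled brain and 3 in head kidney. In the library labelled brain 14 reached 1 FPKM, and in head kidney 8. The FPKM columns summed to between 239905 (skin) and 738341 (pancreas), and the files used here hold no read counts. Steps among low values put skin, muscle and both barbels at 4.17 to 6.31 times the coarseness of the finest library, so values near 0 are least certain there.

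Across the family, liver and heart led. Of the 13 members, 12 reached 1 FPKM in a library, as did 21366 of all 25089 genes. Of these 12, 4 were highest in liver (IGF-2a, IGFBP-1, IGFBP-1b and IGFBP-2-B), where 4.14% of all genes at that level were highest. In heart, 4 others were highest (IGF-2b, IGFBP-5 and both IGFBP-3 loci), where 4.08% of genes were. IGFBP-5a was highest in kidney (2.02% of genes), IGFBP-6 in testis (10% of genes), IGFBP-2-A in the library labelled gill (17% of genes) and IGFBP-6a in that labelled brain (8.45% of genes).

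**Figure D1:**
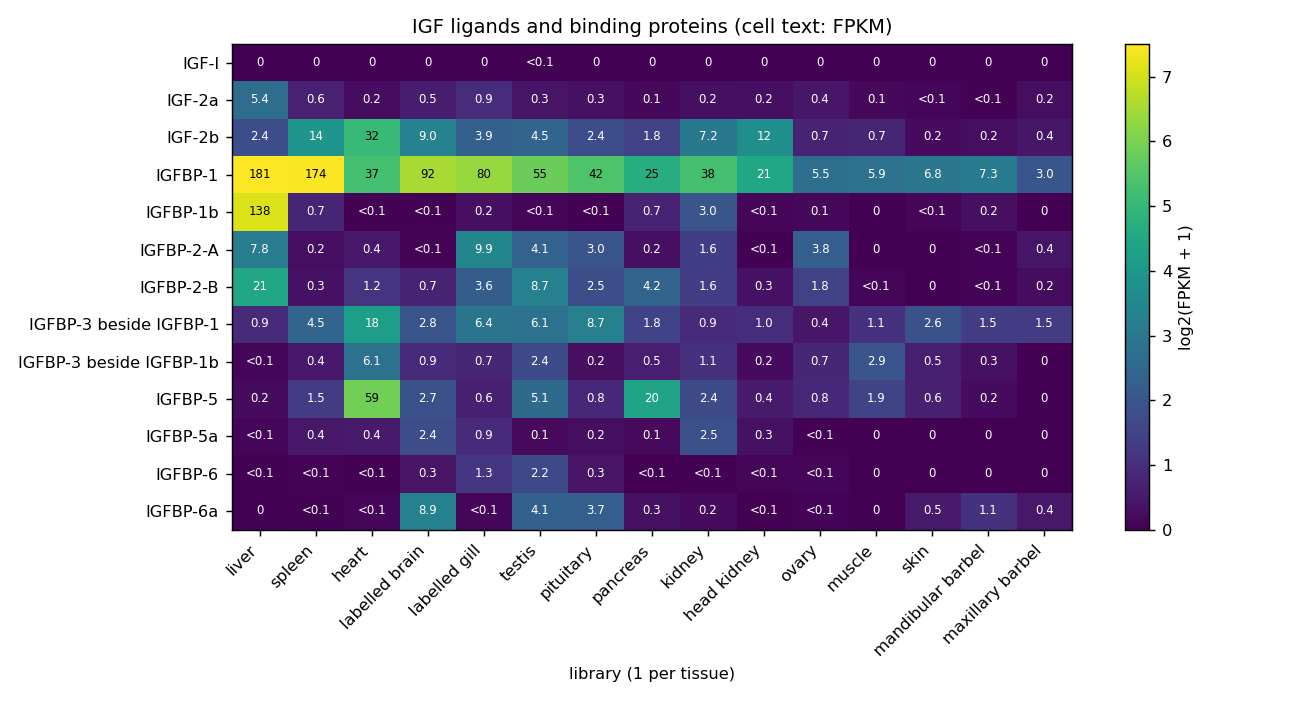
Levels of the 13 loci (rows) in the 15 libraries (columns, 1 per tissue), coloured by log2(FPKM + 1) with FPKM in each cell. IGFBP-1 was above 1 FPKM in all 15 libraries, IGFBP-1b reached 137.9 FPKM in liver, and IGF-I was listed at 0 in 14.

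A gene was called enriched in 1 library when it had at least 5 FPKM there and log2(FPKM + 1) lay at least 5-fold above the next library. Of the 10 members that reached 5 FPKM, 1 passed, IGFBP-1b in liver. Among all 16949 genes that reached 5 FPKM, 13.9% passed in some library and 2.02% did so in liver. Of the 13 members, testis held 9 at 1 FPKM or more, where 63.2% of all genes were, and kidney 8, where 52.9% were. Liver held 6 (41.3% of genes), as did heart (54.5%), pituitary (56.1%) and the libraries labelled brain (56.3%) and gill (59.0%). Head kidney (51.3%), skin (43.8%) and maxillary barbel (43.4%) held 2 each.

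IGF-I, the ligand that carries much of growth hormone's effect in vertebrates, was listed at 0 in 14 of 15 libraries, liver among them. The locus (C0J50_23267, scaffold178273, 10659107 to 10672440, plus strand, 3 coding exons) had 0.0369 FPKM in testis. Multiplied by its coding length (414 bases) in kilobases, this gives 0.0153, below the step of 0.0214 taken as 1 fragment in that library. Other members also had values below the step, such as IGF-2a in mandibular barbel, with 0.0129 against a step of 0.117. The step is thus not a lowest value. Of all genes, 1.61% were listed at 0 in at least 14 libraries, 203 of them with a protein name. A value of exactly 0 can be a failed estimate. The start of the locus overlaps the span of CASC1, a gene on the opposite strand, whose level ran from 0 in muscle, pancreas and maxillary barbel to 2.73 FPKM in testis. The sources used here do not state whether the counting used strand.

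The neighbours of IGF-I were pro-MCH, the precursor of melanin-concentrating hormone, 20.0 kb beyond it, then the PCNA-interacting partner and the nucleoporin Nup37. On its other side, past CASC1, lay the lymphoid-restricted membrane protein and the cytosolic branched-chain aminotransferase.

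The 2 loci named IGF-2 had opposite leading tissues. IGF-2b (C0J50_13824, scaffold178113, 4592411 to 4595801, plus strand, 4 coding exons) had 32.1 FPKM in heart, 14.2 in spleen, 12.3 in head kidney, 9.0 in the library labelled brain and 7.18 in kidney. It had 4.49 FPKM in testis, 3.95 in the library labelled gill, 2.43 in pituitary, 2.39 in liver and 1.78 in pancreas. In muscle, ovary, maxillary barbel, mandibular barbel and skin it lay between 0.165 and 0.699 FPKM. Heart, spleen and head kidney were thus its highest libraries, and both barbels, skin, ovary and muscle its lowest.

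IGF-2a (C0J50_14732, scaffold178120, 7963739 to 7966237, plus strand, 3 coding exons) had 5.42 FPKM in liver, followed by the library labelled gill with 0.944. The other 13 libraries lay between 0.0242 FPKM in mandibular barbel and 0.614 in spleen. Its model is marked incomplete at an end. Liver was the only library in which IGF-2a exceeded IGF-2b, by 2.27-fold, and the other 14 had more IGF-2b. The difference was widest in heart, where IGF-2a had 0.194 FPKM and log2(FPKM + 1) of IGF-2a minus IGF-2b was -4.79.

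Their adjacent genes differed. IGF-2b follows the gene named tyrosine 3-monooxygenase, the first enzyme of catecholamine synthesis, by 4.83 kb, and IGF-2a follows carnitine palmitoyltransferase 1A by 7.68 kb. A gene named USP6 N-terminal-like protein lies near both. It is 36.5 kb beyond IGF-2a on the plus strand, and 40.7 kb before IGF-2b on the minus strand.

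Among the binding proteins, IGFBP-1 was the highest in 14 of 15 libraries. IGFBP-1 is a binding protein of liver that rises in fasting and stress in mammals and fish. The locus (C0J50_21259, scaffold178238, 2370771 to 2372391, minus strand, 4 coding exons) had 180.5 FPKM in liver, 174.3 in spleen, 91.5 in the library labelled brain, 79.7 in that labelled gill and 55.4 in testis. It had 42.0 FPKM in pituitary, 38.1 in kidney, 37.4 in heart, 24.8 in pancreas and 21.1 in head kidney. Mandibular barbel (7.34), skin (6.79), muscle (5.90), ovary (5.52) and maxillary barbel (2.99 FPKM) closed the order. Liver stood 1.04-fold above spleen, and the library labelled brain came next. The near-equal levels depend on the scaling: after rescaling by median ratios liver had 347.0 and spleen 139.7, a lead of 1.31 on the log2 scale in place of 0.050. Rescaled to a common sum, they stayed closer, at 455.7 and 406.7, a lead of 0.164.

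The second locus, IGFBP-1b (C0J50_18817, scaffold178205, 386269 to 389175, minus strand, 3 coding exons), was largely a liver transcript. It had 137.9 FPKM in liver, 2.96 in kidney, 0.715 in spleen and 0.662 in pancreas. In 9 other libraries it lay between 0.0124 and 0.245 FPKM, and it was listed at 0 in muscle and maxillary barbel. Liver exceeded kidney by 46.6-fold. Its model is marked incomplete at an end.

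IGFBP-1 was higher than IGFBP-1b in all 15 libraries, and at least 4-fold higher on the log2(FPKM + 1) scale in 13, the exceptions being liver and maxillary barbel. IGFBP-1b stood at 0.764 of IGFBP-1 in liver, 0.0777 in kidney and 0.00410 in spleen. Liver markers were read beside these values. The 15 liver marker loci summed to 96945.7 FPKM in liver and to 252.3 in spleen, or 0.260% of the liver sum. The sums were 17.9 FPKM in kidney and 318.9 in pancreas, and the lowest was 2.05 in the library labelled brain. Of the 15 loci, 13 reached 1 FPKM in liver, 9 in spleen, 7 in pancreas and 4 in kidney. Fibrinogen gamma chain, a clotting protein made by liver, had 16650.1 FPKM in liver and 49.3 in spleen. The part of liver RNA in the kidney, spleen and pancreas levels of IGFBP-1b was not tested.

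**Figure D2:**
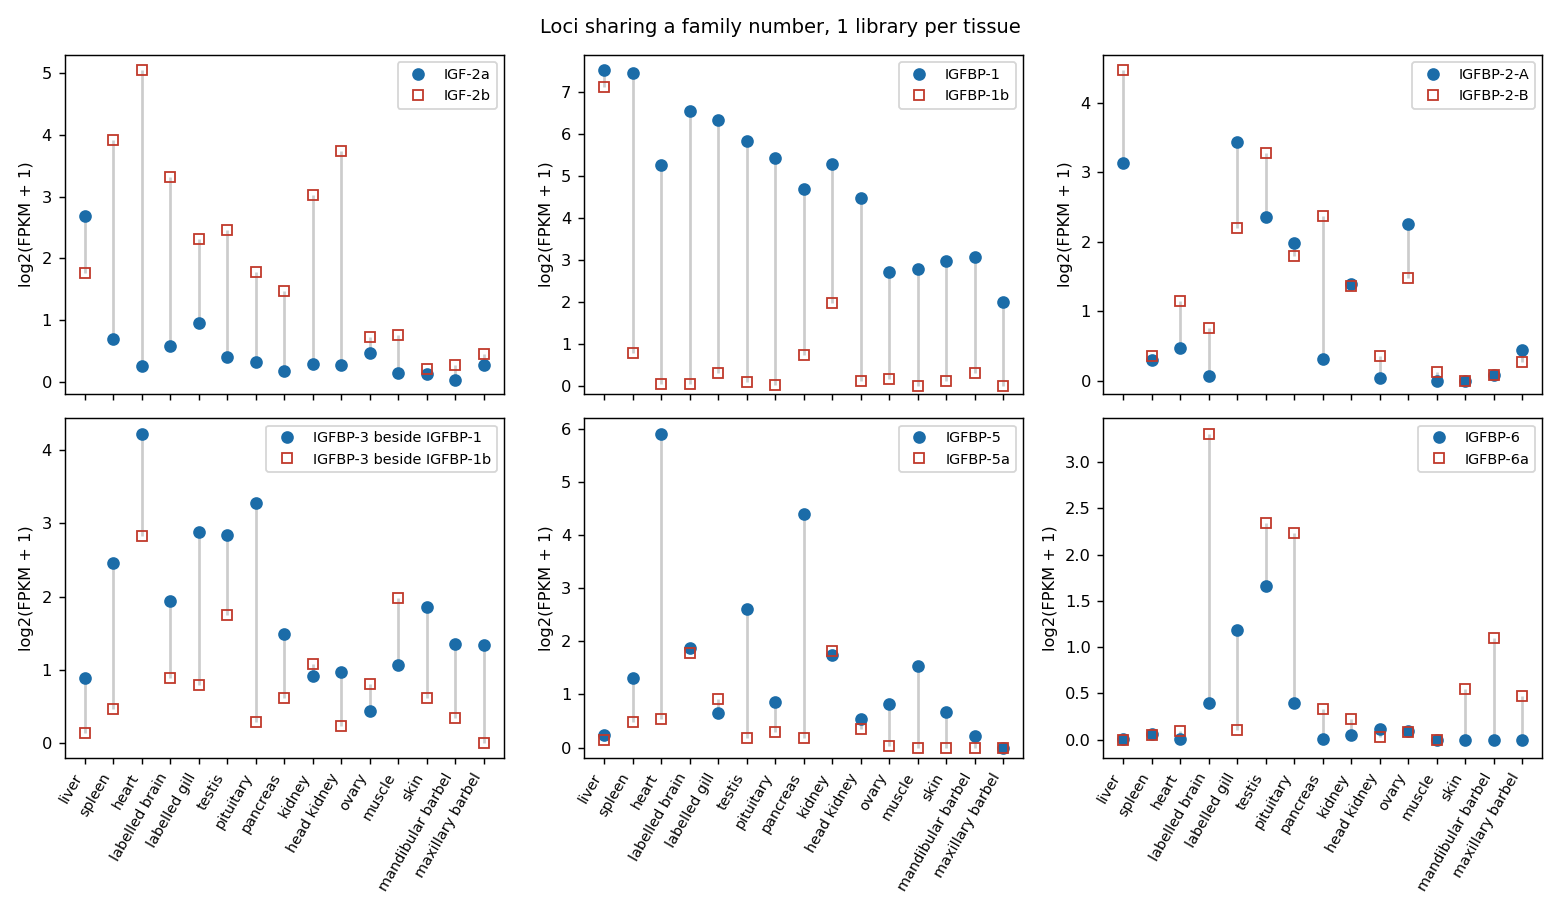
Log2(FPKM + 1) of the 6 pairs of loci that share a family number, by library (1 per tissue); grey lines join the members of a pair. IGFBP-1 lay above IGFBP-1b in all 15 libraries, and IGF-2a lay above IGF-2b in liver alone.

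The IGFBP-2 loci followed similar orders. IGFBP-2 is a carrier of IGF that in mammals rises when insulin and growth hormone are low. IGFBP-2-B (C0J50_22489, scaffold178264, 2026729 to 2038163, minus strand, 4 coding exons) had 21.2 FPKM in liver, 8.65 in testis, 4.19 in pancreas, 3.61 in the library labelled gill and 2.46 in pituitary. It had 1.79 FPKM in ovary, 1.58 in kidney and 1.22 in heart, and the remaining 7 libraries lay at 0.692 or below. Skin was listed at 0.

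IGFBP-2-A (C0J50_04010, scaffold311, 130557 to 139559, plus strand, 4 coding exons) stood at 9.86 FPKM in the library labelled gill, 7.82 in liver, 4.13 in testis, 3.76 in ovary, 2.95 in pituitary and 1.61 in kidney. The other 9 libraries lay at 0.390 or below, with muscle and skin listed at 0. Leaving out both doubtful libraries, liver was its highest library, as it was with all 15 after rescaling by median ratios. The library labelled brain had 0.0468 FPKM. Across the 15 libraries the correlation of log2(FPKM + 1) between the 2 loci was 0.80, and 0.74 without liver. They parted in pancreas, with 4.19 FPKM of IGFBP-2-B and 0.242 of IGFBP-2-A.

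IGFBP-3 in mammals is the main carrier of IGF in blood, where it forms a complex with the acid labile subunit. The locus beside IGFBP-1 (C0J50_21258, scaffold178238, 2355657 to 2366051, plus strand, 4 coding exons) had 17.6 FPKM in heart, 8.69 in pituitary, 6.36 in the library labelled gill, 6.14 in testis and 4.51 in spleen. Its remaining 10 libraries ran from 0.356 FPKM in ovary to 2.85 in the library labelled brain. The locus beside IGFBP-1b (C0J50_18816, scaffold178205, 365499 to 381811, plus strand, 4 coding exons) had 6.10 FPKM in heart, 2.95 in muscle, 2.36 in testis and 1.11 in kidney. It had at most 0.853 FPKM elsewhere and was listed at 0 in maxillary barbel.

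Heart was the highest library for both. Muscle came next for the locus beside IGFBP-1b, whereas the locus beside IGFBP-1 had 1.09 FPKM in muscle. The locus beside IGFBP-1 was the higher of the 2 in 12 libraries, the exceptions being muscle, kidney and ovary. Both had under 1 FPKM in liver, at 0.855 and 0.0991, whereas the acid labile subunit (C0J50_18115) had 29.9 FPKM in liver and at most 1.33 elsewhere.

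IGFBP-5, a binding protein of muscle, bone and connective tissue in mammals, marked heart and pancreas. The locus (C0J50_22488, scaffold178264, 2011002 to 2018237, plus strand, 4 coding exons) had 58.6 FPKM in heart, 20.1 in pancreas and 5.10 in testis. The library labelled brain had 2.67 FPKM, kidney 2.35, muscle 1.89 and spleen 1.48. The other 8 libraries had at most 0.803 FPKM, liver 0.175 among them, and maxillary barbel was listed at 0. Heart was the only library in which IGFBP-1 did not lead: IGFBP-5 made up 48.1% of the summed binding protein FPKM there and IGFBP-1 30.7%.

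IGFBP-5a (C0J50_04011, scaffold311, 149022 to 187423, minus strand, 4 coding exons) stayed low. It had 2.53 FPKM in kidney and 2.43 in the library labelled brain, and at most 0.885 in the other 13 libraries. Muscle, skin and both barbels, the 4 coarsest libraries, were listed at 0. In heart it had 0.448 FPKM against 58.6 for IGFBP-5.

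IGFBP-6 in mammals prefers IGF-II over IGF-I. IGFBP-6a (C0J50_17965, scaffold178189, 38940 to 41581, plus strand, 4 coding exons) stood at 8.91 FPKM in the library labelled brain, 4.06 in testis, 3.69 in pituitary and 1.14 in mandibular barbel. It was at most 0.462 FPKM elsewhere and was listed at 0 in liver and muscle. Leaving out both doubtful libraries, testis was its highest library. IGFBP-6 (C0J50_06331, scaffold586, 5077619 to 5081898, plus strand, 4 coding exons) had 2.17 FPKM in testis and 1.27 in the library labelled gill, and at most 0.317 elsewhere. The libraries labelled brain and gill were opposite for this pair: IGFBP-6a had 8.91 against 0.0735 FPKM, and IGFBP-6 had 0.315 against 1.27.

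Summed over the 10 loci, binding protein FPKM ran from 5.46 in maxillary barbel to 348.6 in liver, with 182.4 in spleen, 121.9 in heart, 110.3 in the library labelled brain and 103.3 in that labelled gill. Liver was 1.91-fold above spleen. After rescaling by median ratios, which divides liver by 0.520 and spleen by 1.25, it was 4.59-fold. In liver IGFBP-1 made up 51.8% of the sum, and in spleen 95.6%. Its share was 83.0% in the library labelled brain and 41.8% in ovary.

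**Figure D3:**
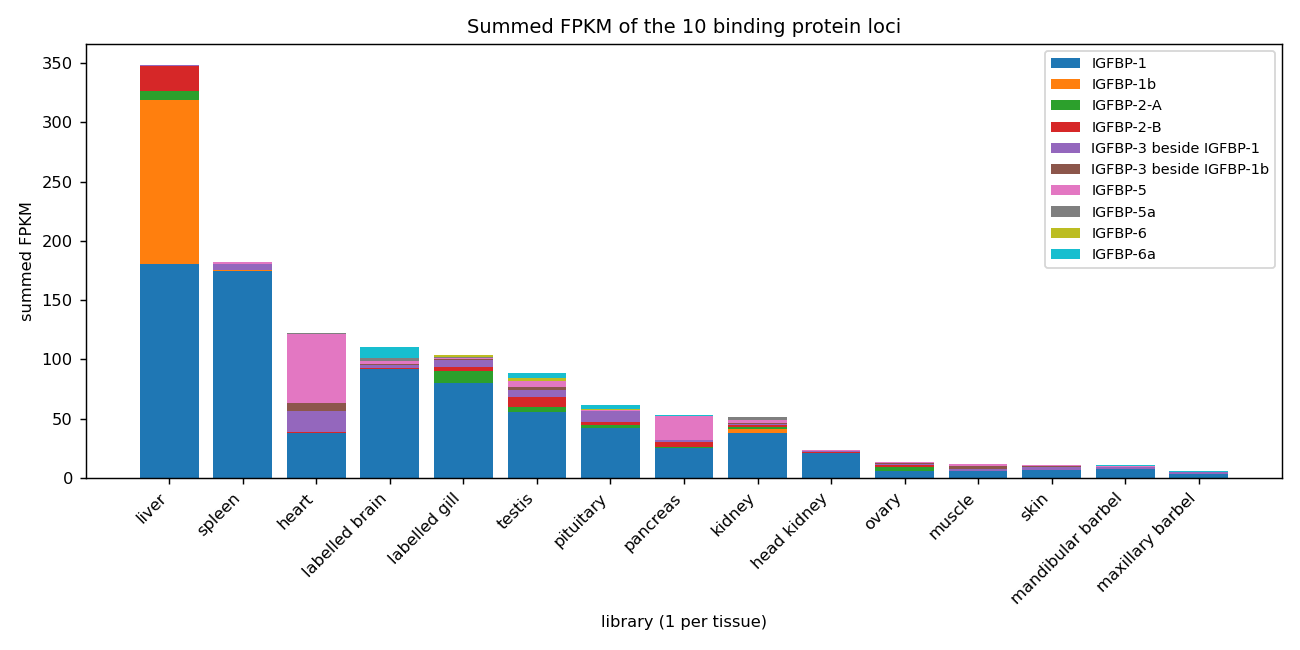
Summed FPKM of the 10 binding protein loci in each library (1 per tissue), with each locus as a coloured part of the bar. Liver reached 348.6 FPKM through IGFBP-1 and IGFBP-1b, and heart 121.9 FPKM with IGFBP-5 as the largest part.

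The 3 ligands summed to 32.3 FPKM in heart, 14.8 in spleen, 12.5 in head kidney and 9.50 in the library labelled brain. The sum was under 1 FPKM in muscle, skin and both barbels. Where it reached 1 FPKM, the binding proteins exceeded the ligands by 1.88-fold in head kidney, 3.78-fold in heart and 44.6-fold in liver. IGF-I entered the sums of these libraries at its listed value of 0, which can be a failed estimate. The sums there, and the ratios, thus hold IGF-2a and IGF-2b alone as ligands. These are ratios of transcript levels, not of proteins.

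In the genome, 8 of the 10 binding protein loci stood in 4 neighbouring pairs. In each pair one gene was on the plus strand, the other followed on the minus strand, and no locus lay between them. IGFBP-3 and IGFBP-1 were 4.72 kb apart, and the other IGFBP-3 and IGFBP-1b 4.46 kb. IGFBP-5 and IGFBP-2-B were 8.49 kb apart, and IGFBP-2-A and IGFBP-5a 9.46 kb. Both pairs of IGFBP-1 and IGFBP-3 lay between tensin-3, an adhesion protein, and adenylate cyclase type 1, followed by sirtuin-5. IGFBP-6 and IGFBP-6a had no such partner among their neighbours, but both lay between LIM domain and actin-binding protein 1 and phosphatidylinositol 5-phosphate 4-kinase type-2 gamma, with SPRY domain-containing protein 3 also on the near side of IGFBP-6. On the IGFBP-6 scaffold 7 genes carried a Hox name, the nearest 205.2 kb away.

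**Figure D4:**
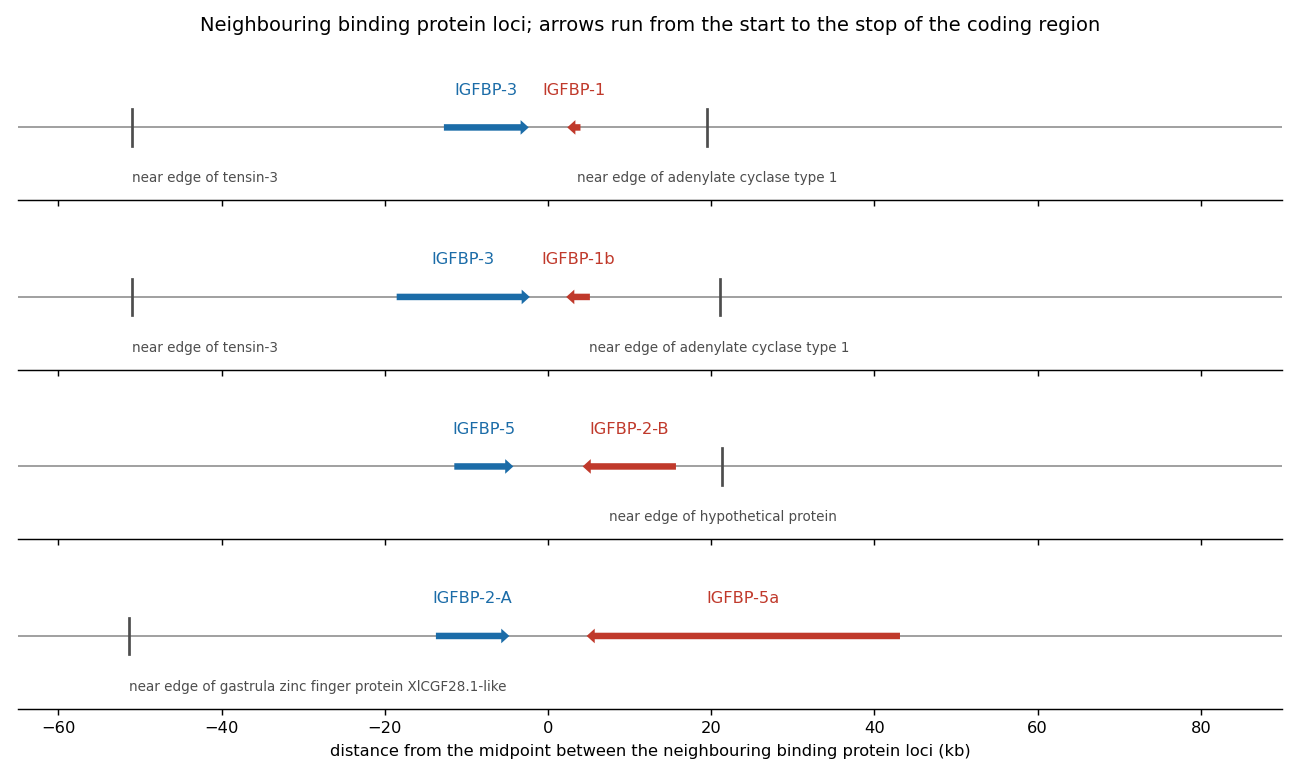
The 4 neighbouring pairs of binding protein loci, drawn to scale in kb from the midpoint of the gap between them, with arrows from start to stop of the coding region and ticks at the near edge of the next locus. Gaps ran from 4.46 to 9.46 kb, and each pair pointed towards each other.

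The neighbours were compared over the 15 libraries. IGFBP-5 and IGFBP-2-B had 58.6 against 1.22 FPKM in heart and 0.175 against 21.2 in liver, with a correlation of 0.15 (0.40 without liver). IGFBP-1b and its IGFBP-3 had 137.9 against 0.0991 FPKM in liver and 0.0299 against 6.10 in heart. Their correlation was -0.27 (-0.07 without liver). IGFBP-1 exceeded its IGFBP-3 in all 15 libraries, and in 10 by at least 4-fold on the log2(FPKM + 1) scale, with a correlation of 0.39 (0.57 without liver). IGFBP-2-A and IGFBP-5a had a correlation of 0.05 (0.13 without liver). These correlations use the same libraries throughout and describe them only.

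Of the 66 pairs among the 12 members at 1 FPKM, 1 had a correlation above 0.8, IGF-2a with IGFBP-1b at 0.90. Without liver that value was 0.04. IGFBP-5 and the IGFBP-3 beside IGFBP-1b had 0.74, and 0.47 without heart. IGF-2b and IGFBP-1 had 0.66. In 15 pairs the correlation was below 0.

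The genes most like each member over the 15 libraries were sought among 15516 named genes that reached 5 FPKM. IGFBP-1b was closest to glucose-6-phosphatase, the last enzyme of glucose release from liver, with a correlation of 0.996 (0.97 without liver). The cell death activator CIDE-B came next (0.99, and 0.91 without liver). Outside liver, IGFBP-1b had 2.96 FPKM in kidney and at most 0.715 in any other library. Its values without liver thus come mostly from low levels. IGF-2b was closest to the endothelin B receptor (0.98, and 0.97 without heart), integrin beta-3, an adhesion receptor of thrombocytes and endothelium (0.96), and the notch-regulated ankyrin repeat protein B (0.96). IGFBP-5 was closest to the 2 loci named GATA-5, a transcription factor of heart and gut (0.93 and 0.90, with 0.84 and 0.79 without heart). The IGFBP-3 beside IGFBP-1b was closest to the 2 loci of CCDC141, a coiled-coil protein (0.92 and 0.91, with 0.85 and 0.83 without heart). Next came popeye domain-containing 2, a protein of striated muscle (0.91, and 0.84 without heart).

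IGFBP-1 was closest to the RNA-binding protein RBMS2 (0.94) and solute carrier 46 member 3 (0.92), and 4 genes in all exceeded 0.9, against 206 for IGFBP-1b and 174 for IGF-2a. IGF-2a was closest to the protein with sushi, von Willebrand factor, EGF and pentraxin domains (0.97, and 0.75 without liver) and to squalene monooxygenase of sterol synthesis (0.97, and 0.73 without liver). IGFBP-2-B was closest to ENPP2-like (0.95, and 0.91 without liver), the ectoenzyme family of autotaxin, and to hepsin, a serine protease of liver (0.91, and 0.84 without liver). IGFBP-2-A was closest to ADAM10b (0.92, and 0.90 without the library labelled gill). The IGFBP-3 beside IGFBP-1 was closest to sterol 26-hydroxylase (0.92) and cadherin-2 (0.91), with 0.87 and 0.86 without heart. IGFBP-6a was closest to gamma-glutamyltransferase 6 (0.95, and 0.92 without the library labelled brain).

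Pairs of related libraries were compared by the same kind of size rule, a difference of at least 4-fold on the log2(FPKM + 1) scale with at least 5 FPKM in the higher library. Each share of genes given for a pair is of the genes that reached 5 FPKM in either library. Between liver and pancreas, 6 members reached 5 FPKM. Of these, 5 were higher in liver (IGF-2a, IGFBP-1, IGFBP-1b, IGFBP-2-A and IGFBP-2-B), against 16.9% of the 5296 genes at that level. IGFBP-5 was the 1 higher in pancreas, against 5.99% of genes. Between heart and muscle, 4 of 5 were higher in heart (IGF-2b, IGFBP-1, IGFBP-5 and the IGFBP-3 beside IGFBP-1), against 26.6% of genes, and 0 in muscle, against 4.96%. With median ratios 3 passed in heart, and IGFBP-1 did not, at 31.7 against 9.61.

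Between ovary and testis, 2 of 4 members were higher in testis, against 18.2% of genes. IGFBP-1 had 55.4 against 5.52 FPKM, and the IGFBP-3 beside it 6.14 against 0.356. None was higher in ovary, where 11.8% of genes were. With median ratios IGFBP-1 alone passed. Between kidney and head kidney 0 of 2 passed (1.44% and 0.11% of genes). IGFBP-1b had 2.96 FPKM in kidney and 0.0790 in head kidney, below the minimum. Its difference of 1.87 was also under 4-fold, but only on the log2(FPKM + 1) scale, where the added 1 narrows ratios of low values. Between the barbels 0 of 1 passed (0.564% and 0.382%).

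Between the libraries labelled brain and gill, IGFBP-6a was higher in the first, against 16.6% of genes, and IGFBP-2-A in the second, against 18.7%. Between pituitary and the library labelled gill 0 of 3 passed in either direction, against 5.39% and 15.8% of genes.

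Among the 5 receptor loci, both type 1 IGF receptor loci and insulin receptor b stayed under 2 FPKM in every library, and insulin receptor a was the highest. The type 1 IGF receptor, the kinase that passes on the IGF signal, was highest in the library labelled gill at 1.43 FPKM, with 1.11 in testis (C0J50_17223). Its second locus (C0J50_07196) reached 1.67 FPKM in mandibular barbel, 1.59 in skin and 0.981 in ovary. The first locus had at most 0.357 FPKM elsewhere, and 0.0814 in skin. The insulin receptor a had 29.5 FPKM in testis, 29.3 in ovary and 2.49 in skin, its lowest, with a median of 14.7. In ovary it exceeded the summed binding proteins (13.2 FPKM). The cation-independent mannose-6-phosphate receptor, which clears IGF-II in mammals, was highest in head kidney (6.30 FPKM) and kidney (5.47). Of the 2 receptor loci that reached 5 FPKM, 0 were enriched in 1 library, against 13.9% of genes at that level.

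**Figure D5:**
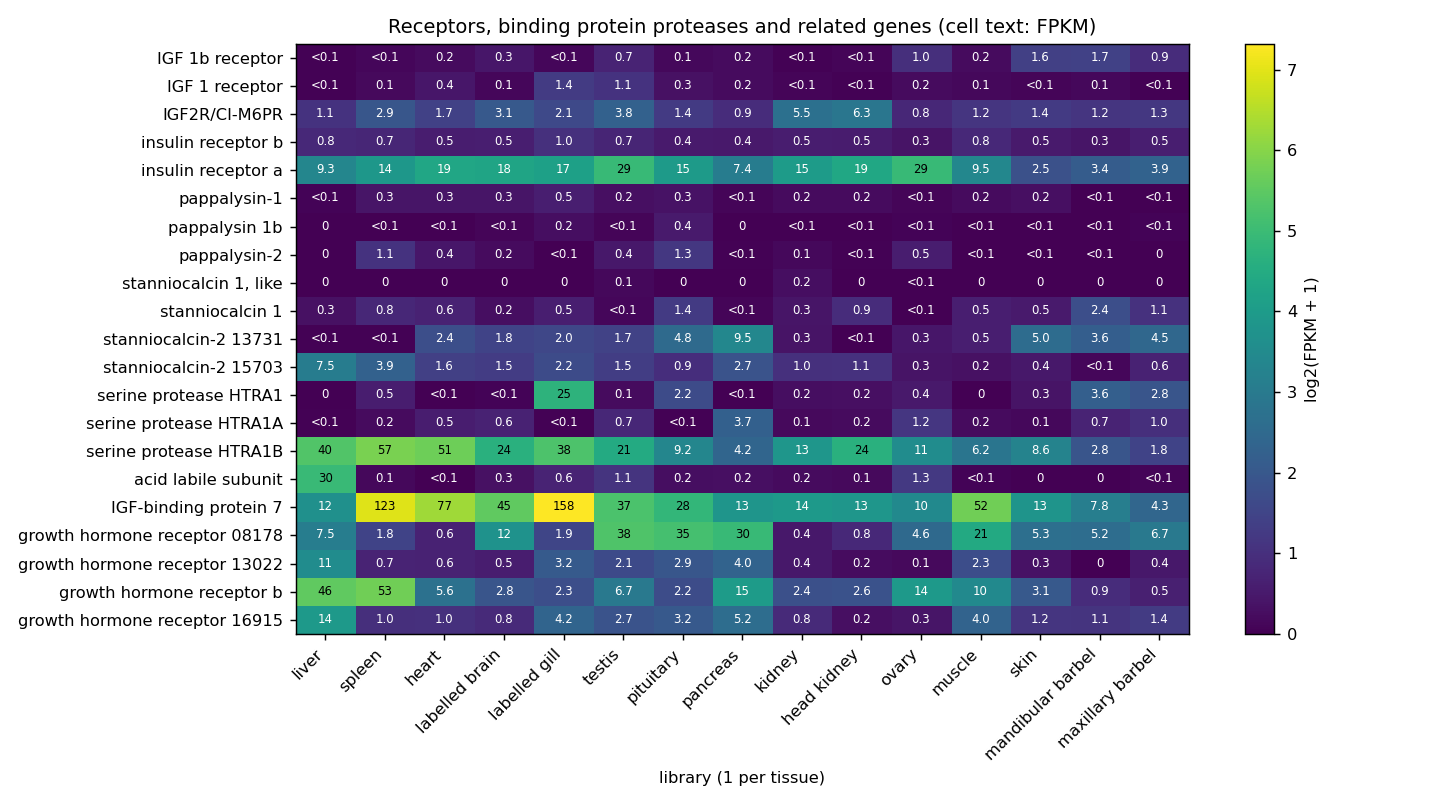
Levels of receptors, binding protein proteases, their inhibitors, growth hormone receptors, the acid labile subunit and IGF-binding protein 7 (rows) in the 15 libraries (columns), coloured by log2(FPKM + 1) with FPKM in each cell. The acid labile subunit reached 29.9 FPKM in liver, and both IGF 1 receptor loci stayed under 2 FPKM.

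Of the 10 loci of binding protein proteases and their inhibitors, 7 reached 1 FPKM, against 21366 of all 25089 genes. Of the 4 that reached 5 FPKM, 1 was enriched, against 13.9% of genes at that level. Pappalysin-1 and its second locus, proteases that cut IGFBP-4 and IGFBP-5 in mammals, had at most 0.522 and 0.442 FPKM. Pappalysin-2 had 1.296 FPKM in pituitary and 1.11 in spleen. Stanniocalcin-2, an inhibitor of pappalysins in mammals, had 9.47 FPKM in pancreas for one locus (C0J50_13731) and 7.49 in liver for the other (C0J50_15703). HTRA1, a serine protease that cuts IGFBP-5 in mammals, was the enriched one, reaching 25.5 FPKM in the library labelled gill. HTRA1B had 56.6 FPKM in spleen, 50.7 in heart and 39.6 in liver.

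The growth hormone axis had 25 loci, of which 20 reached 1 FPKM, against 21366 of all 25089 genes. Of the 16 that reached 5 FPKM, 4 were enriched, against 13.9% of genes at that level: somatotropin in pituitary, and insulin and 2 somatostatins in pancreas. The 4 loci named growth hormone receptor differed in order. C0J50_15734 had 52.5 FPKM in spleen and 45.6 in liver, the same leading pair as IGFBP-1. C0J50_16915 and C0J50_13022 were highest in liver at 14.3 and 10.7 FPKM, and C0J50_08178 in testis (38.4), pituitary (35.0) and pancreas (29.6), with 7.51 in liver. The liver thus held 4 loci of the receptor above 5 FPKM while IGF-I was listed at 0 there. CISH, a feedback inhibitor induced by growth hormone and cytokines, had 23.6 FPKM in spleen and 22.5 in liver (C0J50_03015). Its other locus (C0J50_09330) differed, with 12.5 FPKM in pituitary, 11.4 in kidney, 9.12 in spleen and 0.937 in liver.

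Of the pathway inside the cell, all 26 loci reached 1 FPKM in some library, as did 21366 of 25089 genes. Of the 23 that reached 5 FPKM, 0 were enriched, against 13.9% of genes at that level. Among the 26 loci, ovary was the highest library for 8 and the library labelled gill for 6. Of all genes that reached 1 FPKM, 23.5% and 17% were highest there. GRB10a, an adaptor that restrains insulin and IGF receptors in mammals, had 80.4 FPKM in heart and 28.6 in pancreas, the same 2 leading libraries as IGFBP-5. FOXO3, a transcription factor that IGF signalling holds out of the nucleus, reached 100.2 FPKM in the library labelled gill, and IRS2 (C0J50_22748) 132.7 there. Akt2 and mTOR were highest in ovary, at 46.6 and 32.8 FPKM.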

How the data were processed

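Expression was read from the authors' deposited FPKM table, in which each of 15 columns is 1 library. StringTie 1.3.4d was used, per the submitters' processing notes; aligner, genome build and filters: not given in the sources used here. Positions are counted from 1 and come from the deposited feature table of 25122 loci, whose scaffolds belong to a build not named there. Its coordinates give coding regions. Low values of FPKM times coding length in kilobases were binned to find a step, taken as 1 fragment, in each library. No read depth or interval was derived.

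Members and lists were chosen with earlier results of these data known. List patterns were widened to the table's spelling after it was seen, and 8 symbols matched no locus by name. All loci of a name were kept, and loci with like names may share reads. Named genes were all members, list genes, the 3 genes most correlated with each member at 5 FPKM or more, and neighbours up to 3 loci away. A pseudocount of 1 was used before log2. No test was run because each tissue has 1 library. The enrichment and pair rules were tested on simulated data with even levels across libraries and planted differences. Those data held no low values and no scaling differences between libraries, so they cannot show how the rules act on such values. Alternatives were another pseudocount, fold and FPKM minimum, and libraries left out. FPKM were also rescaled by median ratios over 5659 genes or to a common sum of 1000000. Analyses used Python 3.11.15, pandas 2.3.3, NumPy 2.4.6 and matplotlib 3.10.9. Sequences of the members were not analysed here.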

Additional observations from a re-analysis of the deposited data

How the results depend on the processing

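No paired analysis was possible because each tissue has 1 library. Median ratios gave factors between 0.517 (pancreas) and 2.06 (ovary), dividing every gene of a library alike. IGFBP-1b stayed enriched in liver under all 8 alternatives, and heart stayed the highest library for 4 members under all 5 alternatives run for it. Liver was the highest for 4 or 5. IGFBP-2-A was added by median ratios and by leaving out the pair of libraries whose markers go against their labels. The size of the heart leads moved with median ratios. IGFBP-5 then had 49.6 in heart and 38.8 in pancreas, in place of 58.6 and 20.1. The IGFBP-3 beside IGFBP-1b had 5.16 in heart and 4.8 in muscle, in place of 6.10 and 2.95. On the log2 scale the lead of the IGFBP-3 beside IGFBP-1 was 0.64 in place of 0.94. The lead of IGF-2b was 1.19 in place of 1.13. Under 3 alternatives the enriched members numbered 2 in place of 1. IGF-2a in liver joined when the pseudocount was 0.1 and after median ratios, and IGFBP-5 in heart joined after the common sum. The enriched share of all genes at the minimum moved too, from 13.9% as deposited. It became 16.6% under the smaller pseudocount, 15.5% after the common sum and 13.5% after median ratios. Testis above ovary gave 4 members with a pseudocount of 0.1 and 1 with median ratios, in place of 2. With a common sum, kidney exceeded head kidney in 2 members in place of 0. The library labelled gill then exceeded the library labelled brain in 2 in place of 1, and pituitary in 1 in place of 0. Pituitary exceeded the library labelled gill in 1, as it did with a minimum of 1 FPKM. That sum was 1000000, above the deposited sum of every library, while the minimum of 5 FPKM and the pseudocount stayed the same. Low values could thus newly pass the minimum. IGFBP-1b in kidney, at 2.96 as deposited, then had 6.90. The share of all genes was not recomputed for the pair counts under the alternatives. Binding protein FPKM in liver was 1.91 times that of the next library, 4.59 with median ratios and 2.07 with a common sum; for the ligands in heart these were 2.18, 1.82 and 2.36. Leads of a member's highest library were recomputed 58 times. In 52 the library stayed highest and the enriched call did not change, 3 gained the call and 3 turned. On the log2 scale, IGFBP-2-A turned to -0.56 with median ratios, and IGFBP-5a to -0.021 and IGFBP-6 to -0.066 with a common sum. IGFBP-1b alone was called as deposited, so for the other members an unchanged call says nothing of the size of the lead. The cause was not tested. Muscle, skin and both barbels limit what can be read near 0.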

Other observations

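Genes with an IGF name outside the 13 members had patterns of their own. IGF-binding protein 7, a secreted protein with an IGF-binding domain but low affinity for IGF, had 158.5 FPKM in the library labelled gill, 123.0 in spleen, 77.0 in heart and 52.4 in muscle, with a median of 14.4 over the 15 libraries. The 3 messenger RNA-binding proteins that hold IGF2 transcripts in mammals each led elsewhere. IGF2BP3 had 38.2 FPKM in ovary and 1.80 in testis, the next library. IGF2BP1 had 5.76 FPKM in skin, 5.20 in mandibular barbel and 4.34 in maxillary barbel. IGF2BP2 was broad, from 0.521 FPKM in ovary to 11.8 in head kidney.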
